A study of Homo sapiens with 6 samples.

Results

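The G0/G1 switch gene G0S2 and 9 genes that act with it on stored fat were followed in an RNA sequencing data set of ovarian cancer cells. The genes were taken by name from the deposited table, 10 of its 38637 genes: the inhibitors G0S2 and HILPDA, the lipases PNPLA2, LIPE and MGLL, the lipase activator ABHD5, the droplet coat proteins PLIN2 and PLIN3, and the triglyceride synthases DGAT1 and DGAT2. They were chosen because the values of G0S2 in these same samples were already known to be far higher with drug than without, so the differences between groups in the 10 genes are given as a description, with no p-value. The cells were OVCAR8, a human ovarian carcinoma line labelled wild type, and all samples came from this single line. Of the 6 samples, 3 received DMSO, the solvent, and 3 received pladienolide B at 2 nM, each for 72 h. Pladienolide B is a macrolide natural product that binds SF3B1, a subunit of the spliceosome, and the comparison asks which transcripts differ when this subunit is inhibited. PolyA RNA was sequenced.

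Fat is stored in the cytosol as lipid droplets, in which a core of triglyceride and sterol esters is wrapped in a phospholipid monolayer carrying coat proteins of the perilipin family. The last step of triglyceride synthesis is made by DGAT1 and DGAT2. Lipolysis runs in the opposite direction: PNPLA2, also called ATGL, removes the first fatty acid, hormone-sensitive lipase (LIPE) the next and monoglyceride lipase (MGLL) the last. PNPLA2 is activated by ABHD5 and is bound and inhibited by the small proteins G0S2 and HILPDA. G0S2 is best known from adipose tissue and liver, where it is a target of PPAR receptors, and HILPDA is known as a gene induced by hypoxia.

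Values are adjusted reads, that is, reads per gene brought by the authors to a common library size. Whole reads could be recovered from them, 22621338 to 26130882 per sample on 22005 to 22987 genes with a read. The 3 DMSO samples were not alike: over 16060 genes, the chi-square per degree of freedom between replicates was 1.94 for DMSO replicates 1 and 3, but 7.64 and 7.58 for the pairs that included DMSO replicate 2, and 3.33 to 4.95 among the pladienolide B samples. DMSO replicate 2 therefore stood apart, and results are also given without it. Nothing in the sources says that the samples came from separate cultures, so every p-value below measures only the spread between these samples, which may be technical. The cells matched their label in part. All 9 markers of ovarian carcinoma and epithelium had reads in every sample, among them PAX8 with 3979 to 4411 reads, whereas WT1, MUC16, KRT19 and CDH1 had only 8 to 40. Summed over that list, the level ran from 75666 to 81853 adjusted reads with DMSO and from 77539 to 92785 with pladienolide B. Most of this sum came from KRT8, KRT18 and KRT7, which differed in opposite directions. With the drug, mean KRT8 went from 41500 to 49900 and KRT18 from 19100 to 23500, while KRT7 went from 12500 to 8110. Defining markers of fat cells were nearly absent: of 7 genes, ADIPOQ, LEP, PLIN1 and FABP4 stayed under 10 reads in every sample. CIDEA had 4 to 11 reads and CIDEC 13 to 19. The summed level of that list, most of it from LPL, was 1007 to 1072 with DMSO and 1207 to 1417 with pladienolide B. In the leukocyte and macrophage list of 6 genes, CD3E had no read and PTPRC and LYZ at most 2. CD14 had 5 to 19 reads and CSF1R 7 to 17. The sum of that list, 1113 to 1267 with DMSO and 1508 to 1614 with pladienolide B, came mostly from CD68. The part of either list in the results was not tested.

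Both inhibitors of PNPLA2 are compact genes with a single intron and a coding sequence that lies in 1 exon, 309 bases in G0S2 and 189 in HILPDA. G0S2 spans chr1:209675412-209676390 on the plus strand (GRCh38), 979 bases in all, and HILPDA spans chr7:128455878-128458418 on the plus strand, 2541 bases. The other 8 genes have 6 to 16 introns. PNPLA2 lies at chr11:818914-825573 (plus strand) and DGAT2 on the same chromosome at chr11:75768778-75801534 (plus). ABHD5 at chr3:43690870-43734371 (plus) and MGLL at chr3:127689066-127823185 (minus) share chromosome 3, and PLIN3 at chr19:4838341-4867667 (minus) and LIPE at chr19:42401512-42427421 (minus) share chromosome 19. PLIN2 lies at chr9:19108391-19127518 (minus). No gene of the 10 overlaps another.

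Because pladienolide B acts where the spliceosome recognises the branch point near the end of an intron, the intron of G0S2 (chr1:209675550-209675652, plus strand, 103 bases, hg38) and the last 60 bases of the 1177-base intron of HILPDA (chr7:128457141-128457200, plus strand, hg38) are shown. Capitals mark the first and last bases of the intron where they are printed.
G0S2 intron: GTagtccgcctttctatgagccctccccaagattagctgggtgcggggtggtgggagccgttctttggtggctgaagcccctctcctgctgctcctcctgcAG
HILPDA intron end: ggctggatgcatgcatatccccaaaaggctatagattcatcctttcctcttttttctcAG

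The promoters of G0S2, the gene with the greatest difference, and PLIN2, the most abundant coat gene with DMSO, are shown for the 250 bases before the start (RefSeq, GRCh38.p14). Promoters were found for 6 of the 10 genes, 9 in all: G0S2, PNPLA2, ABHD5, PLIN2, PLIN3 and LIPE. They were searched on both strands for the cores of hypoxia response elements, ACGTG and GCGTG, for the AP-1 motif TGANTCA, for the PPAR direct repeat, AGGTCA repeated after 1 free base, and for the NF-kB motif. Capitals mark ACGTG and GCGTG or their reverse complements. G0S2 lies on the plus strand with its promoter at chr1:209675162-209675411, and PLIN2 on the minus strand with its promoter at chr9:19127493-19127742.
G0S2 promoter: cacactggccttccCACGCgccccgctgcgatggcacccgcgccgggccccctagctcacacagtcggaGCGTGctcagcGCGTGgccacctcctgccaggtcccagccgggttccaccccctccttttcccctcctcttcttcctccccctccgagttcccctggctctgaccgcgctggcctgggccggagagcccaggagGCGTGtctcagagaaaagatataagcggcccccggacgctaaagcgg
PLIN2 promoter: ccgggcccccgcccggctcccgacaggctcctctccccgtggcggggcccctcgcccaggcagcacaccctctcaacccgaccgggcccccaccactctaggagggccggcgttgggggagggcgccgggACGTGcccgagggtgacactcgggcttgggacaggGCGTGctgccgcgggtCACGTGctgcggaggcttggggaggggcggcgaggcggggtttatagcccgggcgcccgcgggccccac

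The G0S2 promoter held 4 matches to GCGTG and none to ACGTG. The PLIN2 promoter held 3 matches to ACGTG, of which a pair overlap in the palindrome CACGTG and count once on each strand, and 1 to GCGTG. PLIN3 held 3 matches to GCGTG and ABHD5 held 1 in its first and second promoters, while those of PNPLA2 and LIPE held none. Among 35116 promoters of the same length, 18.5% held ACGTG and 32.2% held GCGTG, so a match is common. None of the 9 promoters held the AP-1 motif (6.57% of all), the NF-kB motif (9.96%) or the PPAR repeat (0.0171%). These matches describe the letters only. GC content was 69.2% in the G0S2 window and 78% in that of PLIN2.

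The 2 inhibitors of PNPLA2 differed in opposite directions. G0S2 had 96, 148 and 108 adjusted reads in DMSO replicates 1 to 3 and 1196, 1272 and 907 in pladienolide B replicates 1 to 3. The groups were far apart, and DMSO replicate 2 was the highest of the controls. The mean went from 117 ± 27.5 to 1130 ± 193 (SD, n = 3 in each group), a log2 fold change of 3.26 with a standard error of 0.14, or 9.6-fold. All log2 fold changes here are on the scale of log2(value + 1), on which scarce genes appear to differ less than they do. By size of rise G0S2 was number 5 of 16178 genes kept after filtering, although its DMSO level ranked only 11790 among them. Without DMSO replicate 2, whose G0S2 lay 0.54 above the other controls on the log2 scale, the log2 fold change was 3.44. The noncoding gene HSD11B1-AS1 covers G0S2 on the opposite strand and had 0 to 5 reads in any sample.

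HILPDA was lower with the drug. Its adjusted reads were 300, 303 and 271 with DMSO and 125, 131 and 138 with pladienolide B, so that the groups were narrow and well separated. The mean went from 291 ± 17.7 to 132 ± 6.57 (SD, n = 3), a log2 fold change of -1.14 with a standard error of 0.11, which left 45.4% of the DMSO level. Without DMSO replicate 2 the log2 fold change was -1.11. A noncoding gene, LOC102724660, lies on the same strand over the whole of HILPDA and was lower too, with 123, 76 and 87 recovered reads with DMSO against 29, 37 and 31 with pladienolide B. How reads common to both genes were assigned is not given in the sources used here, and the part of this overlap in the HILPDA values was not tested. These are bulk samples, in which less RNA per cell and fewer cells that express a gene cannot be told apart.

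**Figure D1:**
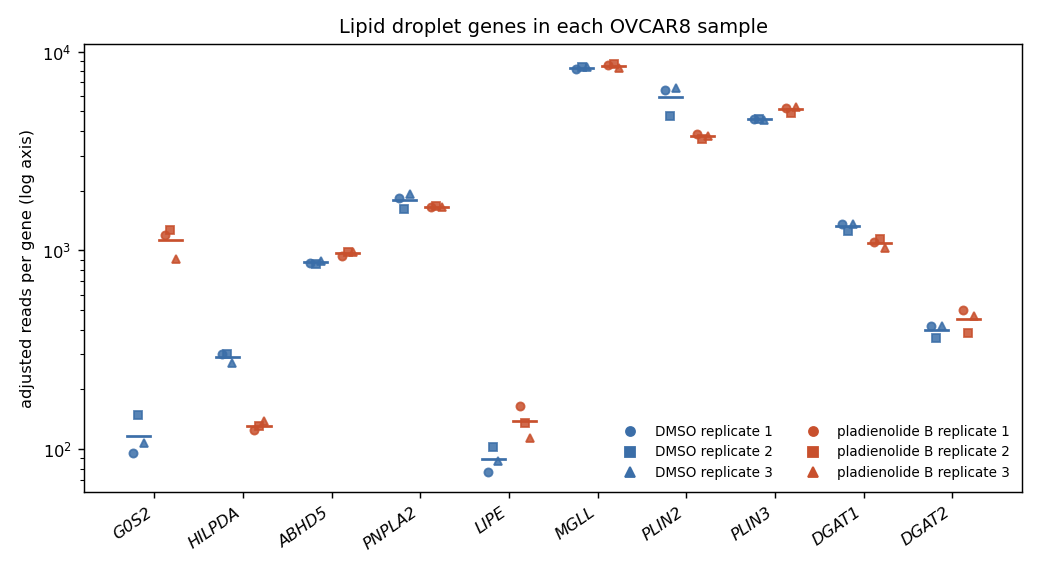
Adjusted reads (log axis) of the 10 genes in each sample, blue for DMSO and red for pladienolide B, with a symbol for each replicate number and a bar at the group mean. G0S2 shows the widest gap, from 96 to 148 with DMSO to 907 to 1272 with pladienolide B, and HILPDA lies lower with the drug, while the points of PNPLA2, MGLL and DGAT2 overlap between groups.

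PNPLA2, the lipase that both inhibitors bind, differed little. It had 1834, 1610 and 1919 adjusted reads with DMSO and 1649, 1679 and 1661 with pladienolide B, and the groups overlapped through DMSO replicate 2. The mean was 1790 ± 160 against 1660 ± 15.2 (SD, n = 3), with a log2 fold change of -0.10, a standard error of 0.06 and a 95% interval of -0.23 to 0.02. Leaving out DMSO replicate 2 gave -0.17, which then passed limma's threshold. The activator ABHD5 (also CGI-58), which PNPLA2 needs for full activity, had 866, 855 and 889 adjusted reads with DMSO and 934, 983 and 987 with pladienolide B. All drug samples were above all controls, by a small margin: the mean was 870 ± 17.2 against 968 ± 29.5, a log2 fold change of 0.15 with a standard error of 0.06. This difference was the least secure of those that passed the threshold, since leaving out any of DMSO replicates 1, 2 and 3 or pladienolide B replicates 2 and 3 ended the call, at log2 fold changes of 0.14 to 0.17, and so did TMM factors, at 0.13. ANO10 overlaps ABHD5 by 725 bases on the opposite strand and had a mean of 882 reads with DMSO and 909 with pladienolide B. CRACR2B shares 16 bases with PNPLA2 and had a mean of 90.3 and 66.7 reads.

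LIPE, hormone-sensitive lipase, was scarce in these cells and higher with the drug. Its adjusted reads were 77, 103 and 87 with DMSO and 165, 136 and 114 with pladienolide B. The groups did not overlap, but the lowest drug sample, replicate 3, was near the highest control, DMSO replicate 2. The mean went from 88.9 ± 13 to 138 ± 25.6 (SD, n = 3), 1.54-fold, with a log2 fold change of 0.63 and a standard error of 0.16. LIPE-AS1 covers LIPE on the opposite strand and had about as many reads, 88 to 120 with DMSO and 70 to 116 with pladienolide B. Whether reads were counted by strand is not given in the sources used here, so reads of LIPE and LIPE-AS1 cannot be told apart with certainty. MGLL, which completes the breakdown of monoglycerides, was the most abundant of the 10 genes by adjusted reads in both groups. It had 8166, 8342 and 8355 with DMSO and 8510, 8622 and 8290 with pladienolide B. Its groups overlapped, and its log2 fold change of 0.03 had a 95% interval of -0.05 to 0.11. Of the noncoding genes within these spans, LOC101930071, antisense to LIPE, had a mean of 9.33 reads with DMSO and 3 with pladienolide B, and LOC107986127, on the strand of MGLL, 50 and 56.3.

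The droplet coats PLIN2 and PLIN3 differed in opposite directions. PLIN2, or adipophilin, is the coat protein found on droplets in most cell types and is degraded when it has no droplet to bind. It had 6411, 4750 and 6566 adjusted reads with DMSO and 3844, 3631 and 3750 with pladienolide B. The drug samples were tight and all lower, and DMSO replicate 2 was the control nearest to them. The mean went from 5910 ± 1010 to 3740 ± 107 (SD, n = 3), a log2 fold change of -0.64 with a standard error of 0.08, which left 64% of the DMSO level. Without DMSO replicate 2 the log2 fold change was -0.79. PLIN3, or TIP47, moves from the cytosol onto new droplets. It had 4573, 4590 and 4544 adjusted reads with DMSO and 5180, 4919 and 5270 with pladienolide B. The controls agreed closely, and every drug sample was higher. The mean was 4570 ± 23.3 against 5120 ± 182, a log2 fold change of 0.16 with a standard error of 0.04. ARRDC5, which overlaps PLIN3 by 54 bases, had at most 4 reads in a sample.

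DGAT1 and DGAT2 both join a fatty acid to diacylglycerol, but are unrelated in sequence and lie in different places in the endoplasmic reticulum. DGAT1 lies at chr8:144314584-144326852 on the minus strand. It had 1364, 1250 and 1359 adjusted reads with DMSO and 1103, 1135 and 1028 with pladienolide B, with no overlap. Its mean went from 1320 ± 64.6 to 1090 ± 54.9 (SD, n = 3), a log2 fold change of -0.28 with a standard error of 0.06, which left 82.2% of the DMSO level. HSF1, on the opposite strand, overlaps the end of DGAT1 by 137 bases and had a mean of 3970 reads with DMSO and 4490 with pladienolide B, and MIR6848 within DGAT1 had none. DGAT2 had 417, 362 and 415 adjusted reads with DMSO and 499, 383 and 469 with pladienolide B. Its groups overlapped through pladienolide B replicate 2, and the log2 fold change of 0.17 had a 95% interval of -0.04 to 0.38. Without pladienolide B replicate 2 it was 0.28 and passed limma's threshold.

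**Figure D2:**
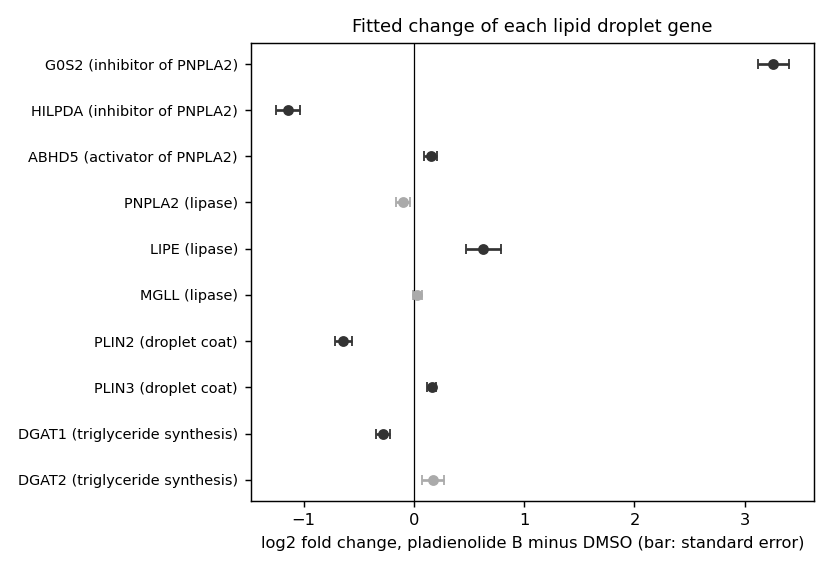
Log2 fold change of the 10 genes, pladienolide B minus DMSO, with bars of 1 standard error, in black where limma's adjusted p over all genes was below 0.05 and in grey where it was not. G0S2 stands at 3.26, HILPDA at -1.14, and the other 8 lie between -0.64 and 0.63.

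By limma over 16178 genes, 7 of the 10 genes had an adjusted p below 0.05, against 47.6% of all genes tested. Of these, 4 were higher with the drug (G0S2, LIPE, PLIN3 and ABHD5), against 22.4% of all genes, and 3 were lower (HILPDA, PLIN2 and DGAT1), against 25.2%. The groups did not overlap in 7 of the 10, which compares with 55.3% of all genes. Since the genes were chosen on this contrast, nothing is read from these counts. G0S2 was the only one of the 10 called at least 2-fold higher, where 1.95% of all genes were, and HILPDA the only one at least 2-fold lower, where 1.98% were. The median log2 fold change was 0.09 over the 10 genes and -0.004 over all genes tested. Of all genes called, 3618 were higher and 4077 lower, a split that depended on scaling: with upper-quartile factors it was 4621 and 3263. The direction of each of the 10 genes was the same under every scaling run.

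DMSO replicate 2 lay outside the other controls on the side of the pladienolide B samples for 6 of the 10 genes, namely G0S2, LIPE, PLIN2, PLIN3, PNPLA2 and DGAT1, or 60%. Over all genes tested this share was 44.8%. The shift was widest for G0S2, at 0.54, PLIN2, at -0.45, and LIPE, at 0.33 on the log2 scale. What sets this sample apart was not tested.

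Divided by the length of the canonical GENCODE transcript, the levels could be set in order, and G0S2 changed place. Per kilobase, the order with DMSO was PLIN2 (3110 ± 531 adjusted reads), PLIN3 (2050 ± 10.4), MGLL (1940 ± 24.7), PNPLA2 (740 ± 66.2), DGAT1 (363 ± 17.7), HILPDA (214 ± 13), DGAT2 (165 ± 13), ABHD5 (164 ± 3.25), G0S2 (134 ± 31.4) and LIPE (23.6 ± 3.46; SD, n = 3 for each). The neighbours DGAT2 and ABHD5, and ABHD5 and G0S2, overlapped in their samples, and the other neighbours did not. With pladienolide B the order was PLIN3 (2300 ± 81.6), MGLL (1980 ± 39.5), PLIN2 (1970 ± 56.2), G0S2 (1280 ± 220), PNPLA2 (688 ± 6.29), DGAT1 (298 ± 15), DGAT2 (187 ± 24.9), ABHD5 (183 ± 5.57), HILPDA (96.5 ± 4.81) and LIPE (36.7 ± 6.8). Here MGLL and PLIN2, and DGAT2 and ABHD5, overlapped. G0S2 thus went from place 9 to place 4, above the lipase it inhibits, PLIN2 from 1 to 3 and HILPDA from 6 to 9. These places rest on the canonical lengths, and which transcripts the cells make was not tested. Without division by length, G0S2 stayed below PNPLA2 in both groups.

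**Figure D3:**
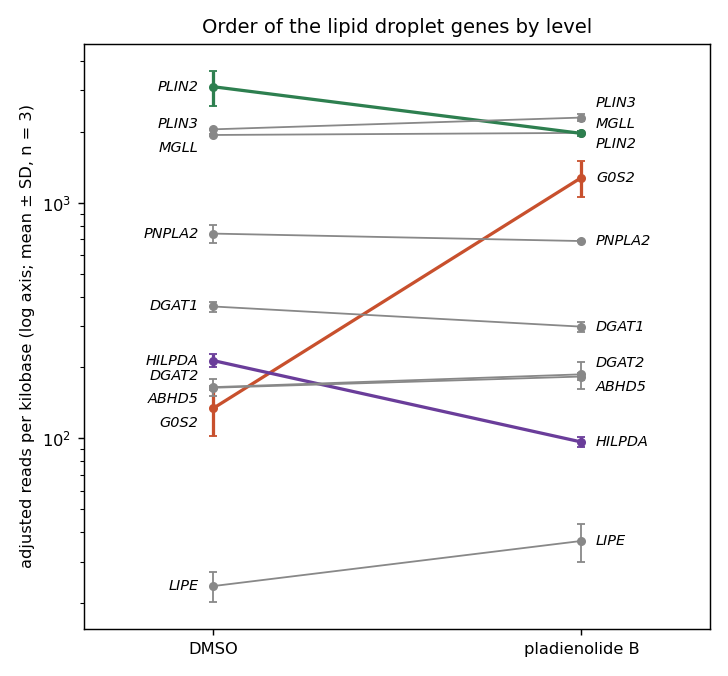
Mean level of each gene in adjusted reads per kilobase of canonical transcript (log axis) with DMSO and with pladienolide B, with bars of 1 SD (n = 3) and a line joining the 2 means of a gene. G0S2 crosses 5 genes, from 134 to 1280, while HILPDA goes from 214 to 96.5 and PLIN2 from 3110 to 1970.

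The ratio of inhibitor to lipase RNA was also taken within each sample. G0S2 over PNPLA2, per kilobase, was 0.144, 0.254 and 0.155 with DMSO and 2.0, 2.09 and 1.51 with pladienolide B, a mean of 0.184 ± 0.0606 against 1.87 ± 0.314 (SD, n = 3). Per kilobase, G0S2 RNA was thus below PNPLA2 RNA in every control and above it in every drug sample. This crossing depends on the division by canonical length. By adjusted reads alone, G0S2 stayed below PNPLA2 with pladienolide B, at 907 to 1272 against 1649 to 1679. HILPDA over PNPLA2 was 0.291 ± 0.0419 with DMSO and 0.14 ± 0.00668 with pladienolide B. The 2 inhibitors together, over PNPLA2, were 0.433, 0.587 and 0.405 with DMSO and 2.14, 2.23 and 1.65 with pladienolide B. G0S2 made up 33.2%, 43.2% and 38.2% of the inhibitor RNA per kilobase with DMSO and 93.7%, 93.8% and 91.1% with pladienolide B. HILPDA was thus the more abundant inhibitor RNA by these values in the controls, and G0S2 in the drug samples. LOC102724660 covers HILPDA on the same strand, and the part of this overlap in these ratios and shares was not tested. These are RNA levels, and the proteins were not measured in these files.

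For the activator, ABHD5 over PNPLA2 was 0.223 ± 0.0168 with DMSO and 0.265 ± 0.00651 with pladienolide B (SD, n = 3). For the coats, PLIN2 over PLIN3 was 1.65, 1.22 and 1.7 with DMSO and 0.873, 0.868 and 0.837 with pladienolide B. PLIN2 RNA thus exceeded PLIN3 RNA in every control and was below it in every drug sample. DGAT1 over DGAT2 was 2.15, 2.28 and 2.16 with DMSO and 1.46, 1.95 and 1.44 with pladienolide B, so DGAT1 remained the more abundant synthase RNA throughout. LIPE over PNPLA2 was 0.0323 ± 0.00756 and 0.0534 ± 0.0102. The groups did not overlap in any of these ratios, which rest on the same samples and genes as the values above.

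**Figure D4:**
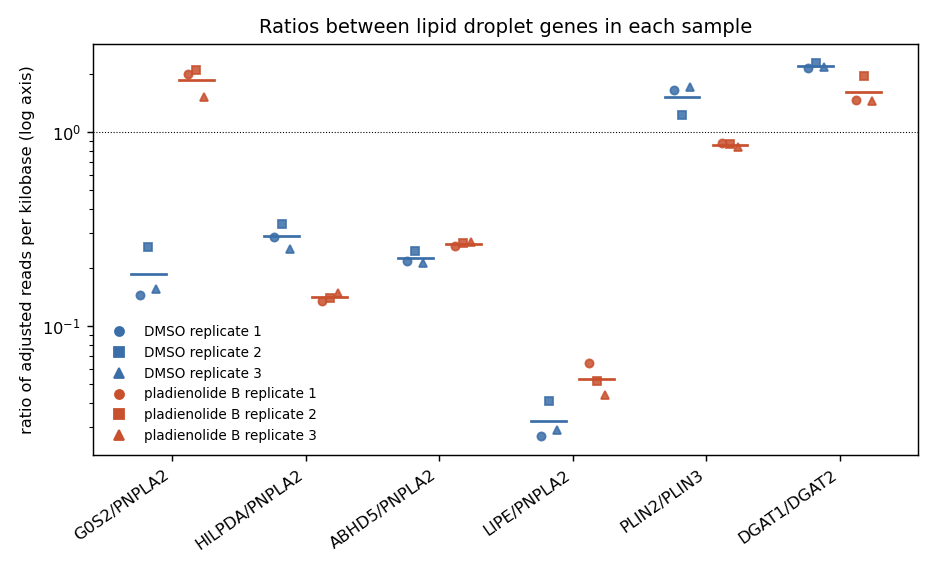
Ratios of adjusted reads per kilobase between pairs of genes in each sample (log axis), blue for DMSO and red for pladienolide B, with a bar at the group mean and a dotted line where both genes are equal. G0S2/PNPLA2 crosses the line upward, from 0.144 to 0.254 with DMSO to 1.51 to 2.09 with pladienolide B, and PLIN2/PLIN3 crosses it downward.

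The surrounding pathway was described by 5 lists of other lipid genes set by role, 98 genes of which 80 passed the filter on low values. By limma, with adjustment over all genes, 43 of the 80 were called (53.8%), 27 higher and 16 lower, with a median log2 fold change of 0. These shares stand beside 47.6% of all genes, 22.4% higher and 25.2% lower, and no list was tested as a set. In the list of 18 droplet coat and biogenesis genes, 12 were tested, 5 rose and 1 fell, with a median log2 fold change of 0.23. That is 50% called, close to the share of all genes. METTL7B, a droplet-associated methyltransferase, rose from 255 ± 4.83 to 366 ± 25.6 adjusted reads (log2 fold change 0.52, SE 0.09, adjusted p = 0.00014 by limma, n = 3). CIDEB, a droplet protein of liver and intestine, rose by 0.42 (SE 0.12, adjusted p = 0.0068 by limma), and without pladienolide B replicate 2 its log2 fold change was 0.30 and missed the threshold. The droplet-associated hydrolase LDAH rose by 0.33 (SE 0.10, adjusted p = 0.01 by limma). FITM2, which helps droplets to bud from the endoplasmic reticulum, was the single fall, from 673 ± 46.4 to 420 ± 9.29 (log2 fold change -0.68, SE 0.07, adjusted p = 9.8e-07 by limma, n = 3).

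Most called genes of the synthesis list, which holds steps before DGAT1 and DGAT2 and also sterol ester synthesis, rose. Of 22 genes of triglyceride and sterol ester synthesis, 17 were tested, 9 rose and 1 fell, with a median log2 fold change of 0.18. The called share was 58.8%, against 47.6% of all genes (22.4% higher and 25.2% lower). GPAT3, an acyltransferase of the first step, had 48.9, 49.4 and 59.7 adjusted reads with DMSO and 165.8, 180.2 and 169.4 with pladienolide B. Its log2 fold change was 1.69 (SE 0.15, adjusted p = 1.2e-07 by limma), the largest in the list. ACSL5, which activates fatty acids, rose from 51 ± 9.89 to 87 ± 11.6 (log2 fold change 0.77, SE 0.19, adjusted p = 0.0032 by limma, n = 3). LPIN1, which makes the diacylglycerol that both DGAT enzymes use, rose from 712 ± 55.6 to 1140 ± 51.8 (log2 fold change 0.68, SE 0.07, adjusted p = 3.5e-07 by limma, n = 3). AGPAT5 fell from 1610 ± 42.7 to 1340 ± 100 (log2 fold change -0.27, SE 0.06, adjusted p = 0.00097 by limma, n = 3). Without DMSO replicate 2, 2 genes of this list were called lower instead of 1.

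Of 18 other lipases and lipolysis accessories, 13 were tested, 6 were called higher and 2 lower, with a median log2 fold change of -0.06. The called share was 61.5%, against 47.6% of all genes (22.4% higher and 25.2% lower). PNPLA3, the closest relative of PNPLA2, rose from 186 ± 15.3 to 277 ± 49.4 (log2 fold change 0.56, SE 0.12, adjusted p = 0.0014 by limma, n = 3). ABHD6, a monoglyceride lipase like MGLL, rose by 0.49 (SE 0.10, adjusted p = 0.00071 by limma), and ABHD12, which shares that activity, fell by 0.24 (SE 0.06, adjusted p = 0.0024 by limma). The endothelial lipase LIPG had 6.42 ± 1.98 adjusted reads with DMSO and 20 ± 3.88 with pladienolide B (n = 3). It passed the filter on low values only through the group where it is high, so its call is not read as a rise, and with at least 10 in every sample required the list had 5 genes called higher. PDE3B, the phosphodiesterase through which insulin restrains lipolysis in fat cells, fell by 0.55 (SE 0.13, adjusted p = 0.0024 by limma).

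Beta-oxidation can use the fatty acids that PNPLA2 releases, and its genes were listed together with those of fatty acid uptake. Of 26 genes, 24 were tested, 2 rose and 10 fell, with a median log2 fold change of -0.17. In all, 50% of the tested genes were called, close to the 47.6% of all genes (22.4% higher and 25.2% lower). ACADS, the short-chain acyl-CoA dehydrogenase, fell from 220 ± 13.4 to 111 ± 14.7 (log2 fold change -0.99, SE 0.13, adjusted p = 7.7e-06 by limma, n = 3). SLC27A5, a fatty acid transport protein that was scarce here, fell from 54.3 ± 4.47 to 23.9 ± 1.58 (log2 fold change -1.15, SE 0.22, adjusted p = 0.00045 by limma, n = 3). SLC27A1, of the same family, fell by 0.86 (SE 0.10, adjusted p = 2.9e-06 by limma). CPT1A, which admits long-chain fatty acids to mitochondria, had a log2 fold change of -0.04 (SE 0.07, adjusted p = 0.72 by limma). It was named after its value was seen. SLC27A4, another fatty acid transport protein, rose by 0.15 (SE 0.05, adjusted p = 0.035 by limma). This call was lost when DMSO replicate 1 or 3 or pladienolide B replicate 2 or 3 was left out, which brought the rises in this list from 2 to 1.

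The PPAR receptors are known regulators of G0S2, PLIN2 and ANGPTL4. They were listed with RXR and LXR receptors, coactivators, C/EBP factors and the targets ANGPTL4 and PDK4. The list held 14 genes, all tested. Of these, 5 rose and 2 fell, with a median log2 fold change of 0.19. That is 50% called, close to the 47.6% of all genes (22.4% higher and 25.2% lower). The coactivator PPARGC1A had 16.9, 14.1 and 25.7 adjusted reads with DMSO and 73, 84.1 and 75.2 with pladienolide B. Its log2 fold change was 2.02 (SE 0.25, adjusted p = 4.4e-06 by limma). PPARA rose from 469 ± 13.3 to 640 ± 20.5 (log2 fold change 0.45, SE 0.07, adjusted p = 4.3e-05 by limma, n = 3), and PPARGC1B rose by 0.46 (SE 0.11, adjusted p = 0.0024 by limma). PPARG had a log2 fold change of 0.23 (SE 0.11, adjusted p = 0.086 by limma). The PPAR target ANGPTL4 had a log2 fold change of -0.02 (SE 0.05, adjusted p = 0.77 by limma). For PDK4, another PPAR target, with 55 to 80 reads, it was -0.01 (SE 0.2, adjusted p = 0.97 by limma). PPARG, ANGPTL4 and PDK4 were named after their values were seen, and PPAR activity was not tested. CEBPD, a factor of early fat cell differentiation, fell by 0.35 (SE 0.07, adjusted p = 0.00058 by limma), and RXRB, a partner of the PPAR receptors, fell by 0.14 (SE 0.04, adjusted p = 0.018 by limma). RXRB missed the threshold without DMSO replicate 1 or 3 or pladienolide B replicate 1 or 2, which left 1 fall in the list.

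**Figure D5:**
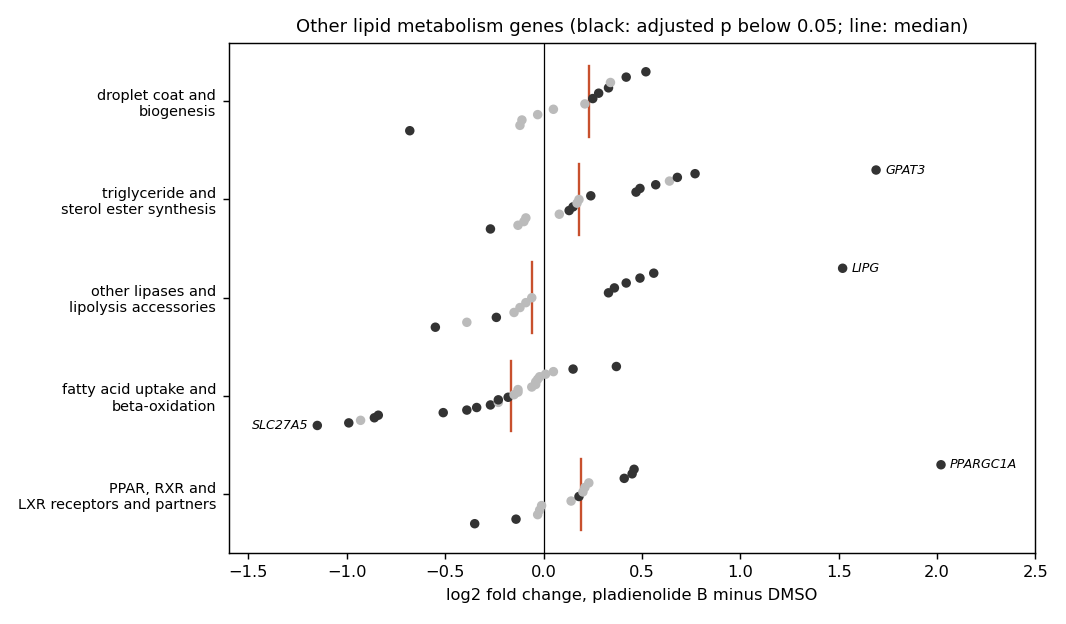
Log2 fold changes of the 80 tested genes in the 5 lists, pladienolide B minus DMSO, in black where limma's adjusted p was below 0.05 and in grey where it was not, with a red line at each list's median and names for genes called at least 2-fold higher or lower. GPAT3, LIPG and PPARGC1A lie farthest to the right and SLC27A5 farthest to the left, and the median of the uptake and beta-oxidation list is -0.17.

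The genes whose pattern over the 6 samples was most like that of G0S2 were found among all 16178 by the Euclidean distance between log2 values, each centred on its own mean. The nearest was LOC105375740, at a distance of 0.69, with 9, 9 and 8 adjusted reads with DMSO and 77, 74 and 69 with pladienolide B. CDR1 (0.82), LOC105375873 (0.84), the matrix protease MMP3 (0.91) and the pregnancy-specific glycoprotein PSG1 (1.05) followed. None of these last 4 had more than 3 adjusted reads in a control, so their patterns are known far less precisely than that of G0S2. All of these genes, LOC105375740 included, passed the filter on low values only through the pladienolide B samples. They were also picked for their likeness to G0S2 in this contrast, so they are described only and not read as rises. PSG1 belongs to a family of near-identical genes between which reads can be split.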

How the data were processed

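RNA from 3 DMSO and 3 pladienolide B samples of OVCAR8 cells was analysed. By the study's methods, trimmed reads were mapped to hg38 with hisat2 and groups compared with DESeq2. The submitters' processing notes list HISAT2, HTSeq 0.12.4, DESeq2 and hg19. Of 35926 symbols shared with RefSeq's GRCh38.p14, 99.8% of the positions in the table overlap those given there, so GRCh38 is used here. The values the authors deposited are a signal per gene adjusted for library size, which edgeR's quantile adjustment of counts returns exactly from whole reads (common dispersion 0.0027). Inverting that adjustment gave whole reads, within 0.02, for 100% of 96432 values of 10 or more. The table also holds the authors' fold changes, p-values and q-values, which were not used.

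Genes with 10 adjusted reads in 3 samples and 15 in total were kept (filterByExpr, edgeR 4.0.16), leaving 16178 that included all 10 lipid droplet genes. log2(value + 1) was fitted by limma 3.58.1 with a variance trend, two-sided, with Benjamini-Hochberg adjustment over all 16178. A gene was called at an adjusted p below 0.05. In R 4.3.3, 16 alternatives were run, including edgeR's quasi-likelihood test and DESeq2 1.42.0 on the recovered reads. The scripts were tested on simulated data. The 10 genes, the 5 lists and the markers were chosen with earlier results of these data known. In each list, up to 3 of the largest rises and falls among called genes without overlap between groups are named. The other genes named are the 5 nearest to G0S2 and any gene overlapping one of the 10. CPT1A, PPARG, ANGPTL4 and PDK4 were named after their values were seen. A gene that this rule names is not reported here.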

Additional observations from a re-analysis of the deposited data

How the results depend on the processing

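For the 10 genes, 150 of 160 values under the alternatives kept their direction and their side of the threshold, and none reversed. The call of ABHD5 was lost without a filter on low values (0.15), with TMM factors (0.13) and in 5 of the 6 fits that left out a sample (0.14 to 0.17), and was kept in the other, at 0.18. Over those fits PNPLA2 ranged from -0.17, past the threshold, to -0.05, and DGAT2 from 0.09 to 0.28, past the threshold. The other genes followed were those picked by rule from the lists and the 5 nearest to G0S2. CPT1A, PPARG, ANGPTL4 and PDK4 were not among them. Of 442 values for these other genes, 427 kept their call, and the 15 that lost it were of CIDEB, SLC27A4 and RXRB. They were picked because they were called, or lay near G0S2, in the main fit, so this share is not read as support. LIPG and the 5 genes nearest to G0S2 had under 10 adjusted reads in the controls. They were therefore not tested where at least 10 in every sample was required, and the 442 values leave them out there. Among the lists, the synthesis genes called lower were 2 with TMM factors instead of 1, and the beta-oxidation genes called higher were 1 instead of 2 without a filter, with TMM factors or without the variance trend. The PPAR list had 8 called higher with upper-quartile factors instead of 5, and 1 called lower with those factors or without the variance trend instead of 2. Over the fits that left out a sample, 3 counts each ranged from 1 to 2. These were the synthesis genes called lower, the uptake and beta-oxidation genes called higher and the genes of the PPAR list called lower. The cause of these differences was not tested.

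Replicate numbers did not pair the samples: the deviations of samples with the same number from their group means correlated at -0.02, -0.02 and 0. With the replicate number as a block, 7349 genes were called instead of 7695, and 6 of the 10 lipid droplet genes instead of 7, since ABHD5, at 0.15, missed the threshold.

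The number of genes called ran from 6381, without the variance trend, to 7884, with upper-quartile factors, which moved the median of all genes to 0.055. edgeR's quasi-likelihood test called 7738 genes and DESeq2 6985, and both called the 10 genes as limma did. Depth limits LIPE, LIPG and PPARGC1A, with at most 159, 23 and 79 reads in a sample. It also limits SLC27A5, ACSL5 and PDK4, with at most 62, 96 and 80.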
